A study of Mus musculus with 12 samples.

Results

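Ribosome biogenesis and nucleolar genes encode the machinery that makes ribosomes: RNA polymerase I, the small nucleolar RNA-protein particles (snoRNPs) that modify ribosomal RNA (rRNA), nucleolar chaperones, and the factors that cut, fold and assemble the small and large ribosomal subunits. The 44 genes described here were chosen by symbol from a list of nucleolar and pre-rRNA processing genes, and 43 of them had a row in the deposited table of 19434 genes. All 43 passed the filter on low counts, as did 11062 genes in all. Noc2l had no row under that symbol and was not analysed here.

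The genes were followed in CD4+ T cells, the helper T cells, sorted from lung tissue of male and female C57BL/6NJ mice. Mice aspirated the bacterium E. coli (2800000 colony-forming units), or buffered saline (PBS) as the control, on day 5 of life (neonates) or on day 15 (juveniles). Cells were taken 48 h later by magnetic enrichment and flow sorting, and RNA was counted by sequencing. Each of the 4 groups (neonatal PBS, neonatal E. coli, juvenile PBS, juvenile E. coli) held 3 libraries, each a pool of 3 neonatal or 2 juvenile mice, so the spread given below is between pools and not between single animals. The labels give 1 strain for all groups and name no engineered allele.

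A growing T cell must build ribosomes before it can divide. RNA polymerase I transcribes the ribosomal DNA in the nucleolus, box C/D and box H/ACA snoRNPs guide ribose methylation and pseudouridylation of the transcript, and a large set of assembly factors processes it into the rRNAs of both subunits. The transcription factor Myc, which pairs with Max and binds the E-box letters CACGTG, is known as an activator of many of these genes in activated lymphocytes.

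The E-box letters stood in the promoter windows of 9 of the 38 members found in the RefSeq promoter table (GRCm38.p6), or 23.7%. The windows ran from 250 bases before to 50 bases after each annotated start. Of the 8324 tested genes with a window, 11.8% held CACGTG, and of all 27025 genes in the promoter set 8.09% did. The letters are their own reverse complement, so both strands were read at once. Each E-box is shown with up to 12 bases on each side, in capitals, 5′ to 3′ on the gene's strand, because these are the sites at which a response to Myc would be looked for.
Imp4: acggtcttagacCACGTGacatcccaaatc
Nop2: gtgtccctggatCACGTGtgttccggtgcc
Ltv1: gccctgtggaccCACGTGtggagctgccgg
Utp20: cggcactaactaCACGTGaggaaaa
Pes1: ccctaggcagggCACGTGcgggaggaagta
Mybbp1a: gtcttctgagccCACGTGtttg
Tsr1: tcacttggtgcaCACGTGgactgcagaatg
Nle1: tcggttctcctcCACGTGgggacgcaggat
Wdr43: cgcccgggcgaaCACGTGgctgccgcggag
The printed stretches lie at chr1:34439696-34439725 (Imp4, plus strand), chr6:125131811-125131840 (Nop2, plus), chr10:13193092-13193121 (Ltv1, minus), chr10:88826765-88826789 (Utp20, minus) and chr11:3963965-3963994 (Pes1, plus). The others lie at chr11:72441355-72441376 (Mybbp1a, plus), chr11:74898092-74898121 (Tsr1, plus), chr11:82908355-82908384 (Nle1, minus) and chr17:71616220-71616249 (Wdr43, plus). In Imp4 the E-box began 121 bases before the start and in Nop2 60 bases before it. In the other 7 it began 3 to 41 bases after the start, counting the first transcribed base as 1. Over all windows of the table, 361 of 2589 E-boxes (13.9%) began after the start.

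A second motif, CGGAAG on either strand, the core letters bound by ETS family factors, stood in 21 of the 38 member promoters (55.3%), in 35.7% of the tested genes with a window and in 18.8% of all genes of the table. The promoters of the 3 RNA polymerase I subunits that fell in infected juveniles, and of Nop10, whose response differed between the ages, are shown from 250 bases before to 10 bases after the start. Capitals mark CGGAAG or its reverse complement CTTCCG. None of the 4 windows holds CACGTG.
Polr1a: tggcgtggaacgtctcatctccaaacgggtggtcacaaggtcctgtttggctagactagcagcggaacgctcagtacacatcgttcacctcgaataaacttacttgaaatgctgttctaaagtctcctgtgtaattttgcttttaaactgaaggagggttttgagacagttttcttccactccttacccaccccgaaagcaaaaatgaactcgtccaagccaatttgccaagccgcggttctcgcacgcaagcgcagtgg
Polr1b: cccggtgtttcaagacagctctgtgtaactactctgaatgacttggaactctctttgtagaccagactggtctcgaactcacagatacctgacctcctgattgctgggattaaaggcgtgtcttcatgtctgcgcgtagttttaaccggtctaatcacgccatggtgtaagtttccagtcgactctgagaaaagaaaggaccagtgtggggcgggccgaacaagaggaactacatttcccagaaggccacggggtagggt
Polr1c: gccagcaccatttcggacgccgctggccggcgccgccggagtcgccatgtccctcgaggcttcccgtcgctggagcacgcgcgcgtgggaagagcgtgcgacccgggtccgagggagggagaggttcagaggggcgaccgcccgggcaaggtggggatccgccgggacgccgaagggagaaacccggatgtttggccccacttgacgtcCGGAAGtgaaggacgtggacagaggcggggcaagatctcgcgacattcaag
Nop10: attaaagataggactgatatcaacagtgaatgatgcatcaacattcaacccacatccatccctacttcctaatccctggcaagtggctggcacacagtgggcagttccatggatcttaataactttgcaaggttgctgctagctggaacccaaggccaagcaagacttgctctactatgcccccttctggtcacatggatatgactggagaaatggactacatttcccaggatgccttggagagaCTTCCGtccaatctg
These windows are chr6:71908803-71909062 (Polr1a, plus strand), chr2:129100746-129101005 (Polr1b, plus), chr17:46248036-46248295 (Polr1c, minus) and chr2:112261676-112261935 (Nop10, plus). The letters CGGAAG began 41 bases before the start of Polr1c and 5 bases before that of Nop10.

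Each library held between 6035445 and 8129983 counts over genes. T cell identity genes summed to 5464 to 7508 CPM (read counts scaled to library size and composition) in every library, B cell genes to 29.7 to 80.1 CPM and neutrophil genes to 0.330 to 65.5 CPM. Other lists held more: monocyte and macrophage genes summed to 538 to 1846 CPM and NK and innate lymphoid genes to 339 to 933 CPM. Dendritic cell and MHC class II genes summed to 141 to 794 CPM, and endothelial genes to 261 to 358 CPM. The second juvenile PBS library stood apart: its log2 CPM correlated with those of its group at 0.969 and 0.9746, against at least 0.981 for all other pairs within groups. It also held 376.6 CPM of 7 immature T cell genes, against 51.2 and 70.5 CPM in the other juvenile PBS libraries, and the first neonatal PBS library held 571.5 CPM. These genes also differed between groups: all 3 juvenile E. coli libraries held 214.8 to 276.1 CPM and the neonatal E. coli libraries 37.4 to 85.02 CPM.

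After E. coli most ribosome biogenesis transcripts stayed within 1.5-fold of their PBS level at both ages. The 95% interval lay within 1.5-fold in either direction for 28 of the 43 genes in juveniles and 36 in neonates. In juveniles, 9 of the 43 genes fell and 1, Ncl, rose, by edgeR's quasi-likelihood test with a Benjamini-Hochberg adjusted p under 0.05 over all genes, where 24.8% of all tested genes were called. In neonates none passed the test, where 1.19% of all tested genes did. Summed over the 43 genes, the level was 7943 ± 207 CPM (SD, n = 3) in neonatal PBS, 7629 ± 216 CPM in neonatal E. coli, 7372 ± 909 CPM in juvenile PBS and 7297 ± 531 CPM in juvenile E. coli. The sums of the 4 groups lie within the spread of the juvenile PBS pools, of which the second held 8392 CPM and the others 7074 and 6648 CPM. Npm1 and Ncl made up 65.4% of the sum in juvenile PBS. The other 41 genes summed to 0.915 times the PBS level in infected juveniles. These are bulk samples, in which fewer cells of a type and less RNA per cell cannot be told apart.

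**Figure D1:**
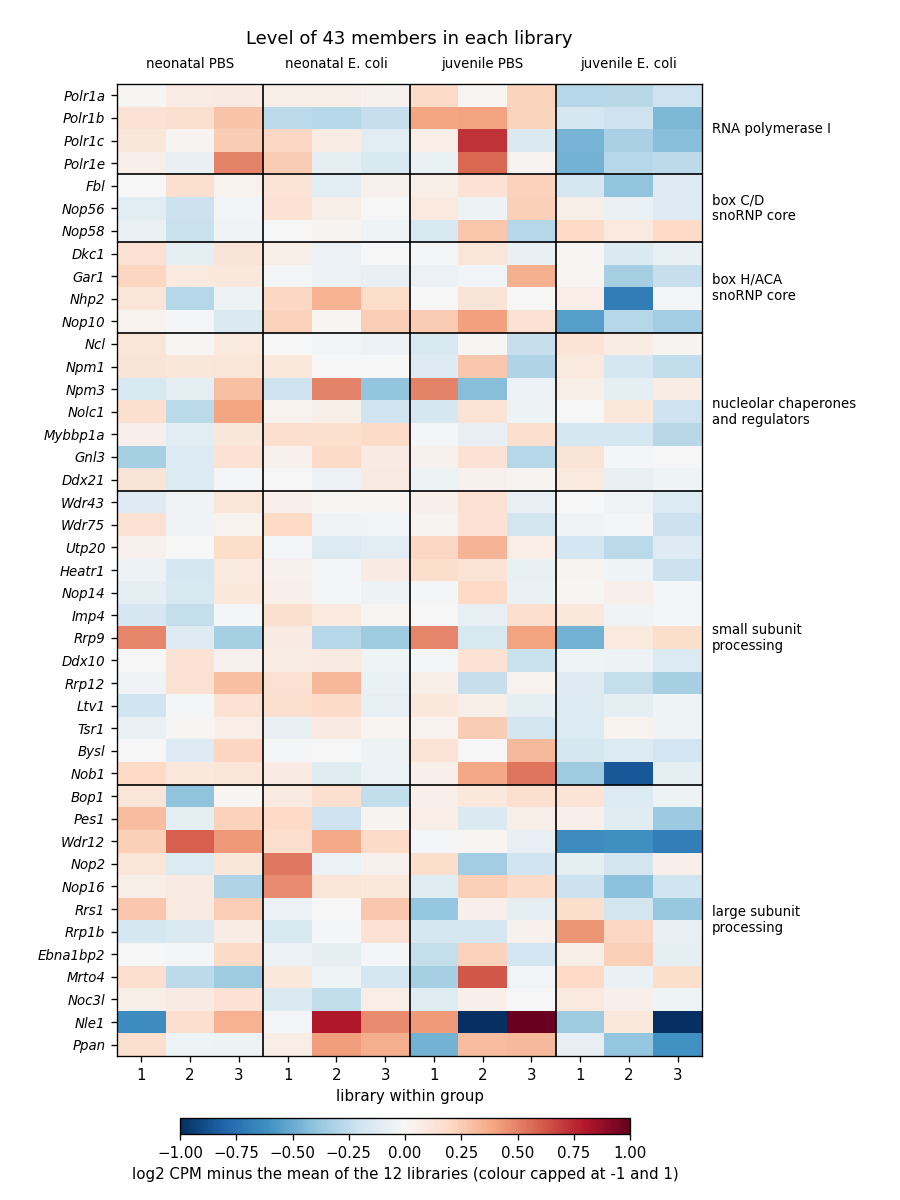
Level of each of the 43 ribosome biogenesis genes (rows, by role) in each of the 12 libraries (columns, by group), as log2 CPM minus the gene's mean over the libraries, with colour capped at 1 in either direction. The juvenile E. coli columns are mostly blue in the RNA polymerase I rows and in Nop10, Nob1 and Wdr12. Polr1b is also blue in the neonatal E. coli columns, and many other rows are pale.

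The group means of the members spanned a narrow range. The highest group mean was at the median 1.224 times the lowest, against 1.335 times over all 11062 tested genes, and 7 members (16.28%) reached 1.5-fold, against 35.07% of all. Low counts widen such ratios. Among genes of an average log2 CPM of at least 3, the medians were 1.207 for 38 members and 1.262 for 8140 genes. Of these, 13.16% of the members and 22.3% of all genes reached 1.5-fold. Wdr12 alone spanned 2-fold or more (2.108-fold). The juvenile E. coli group had the lowest mean for 27 of the 43 members (62.79%), against 34.93% of all tested genes. Juvenile PBS had the highest for 18 members (41.86%), against 27.03% of all tested genes.

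Scaled to transcript length, Npm1 was the most abundant member at 1916 CPM per kilobase over all libraries, followed by Ncl at 237.5 and Nop56 at 75.9 CPM per kilobase. Npm3 was the lowest at 1.53 CPM per kilobase, below Nle1 at 1.99 and Rrp9 at 2.26 CPM per kilobase. The lengths are those of the GENCODE M21 transcript with the longest coding sequence. For Ncl this transcript is 8202 bases long and for Nop58 9507 bases, so a shorter transcript in these cells would raise their per-length levels.

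Of the 4 RNA polymerase I subunits among the members, 3 fell in infected juveniles and Polr1e did not pass the test. The 3 are 75% of the subunits, where 9.42% of all tested genes fell. Polr1a encodes the largest, catalytic subunit and lies at chr6:71909053-71984935 on the plus strand (GRCm38, GENCODE M21). Its level was 145, 128 and 148 CPM in the juvenile PBS pools and 104, 104 and 109.5 CPM in the juvenile E. coli pools. Neonates held 127, 133 and 134 CPM after PBS and 132, 132 and 129.9 CPM after E. coli. All 3 juvenile E. coli pools were thus below the other 9 libraries. The juvenile log2 fold change was -0.41 ± 0.08 (SE, n = 3 pools a group, adjusted p = 0.00185 by edgeR), and the neonatal one was -0.003 ± 0.080 (adjusted p = 0.993).

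Polr1b, the second catalytic subunit (chr2:129100995-129126594, plus strand), held 18.01, 18.1 and 15.9 CPM in juvenile PBS pools and 12.2, 11.9 and 10.04 CPM in juvenile E. coli pools. In neonates it held 15.2, 15.3 and 16.7 CPM after PBS and 11.4, 11.2 and 11.66 CPM after E. coli. At both ages the infected pools were all below the PBS pools. The juvenile log2 fold change of -0.61 ± 0.14 passed the edgeR test (adjusted p = 0.00537). The neonatal one, -0.46 ± 0.14, did not (adjusted p = 0.169), and the difference between the ages was -0.15 ± 0.20 (adjusted p = 0.708).

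Polr1c, a subunit shared with RNA polymerase III (chr17:46243920-46248054, minus strand), held 54.9, 86.4 and 47.4 CPM in juvenile PBS pools and 37.9, 41.7 and 38.9 CPM in juvenile E. coli pools. The neonatal pools held 56.5, 53.5 and 62.2 CPM after PBS and 60.5, 55.2 and 48.7 CPM after E. coli. The juvenile groups did not overlap, and the second juvenile PBS pool was far above every other library. Polr1c fell by 0.67 ± 0.17 on the log2 scale in juveniles (adjusted p = 0.0111 by edgeR). Without the second juvenile PBS library the change was -0.37, still past the edgeR test (adjusted p = 0.0278).

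Polr1e, which encodes a subunit of the initiation-competent enzyme, held 14.8 to 23.1 CPM in juvenile PBS and 11.2 to 12.96 CPM in juvenile E. coli pools. These groups did not overlap, but the change of -0.54 ± 0.20 did not pass the edgeR test (adjusted p = 0.062). It passed without the third neonatal PBS (0.0449) or the first juvenile PBS library (0.0474). The 4 subunits summed to 238.3 ± 15.4 CPM in juvenile PBS and 169 ± 3.50 CPM in juvenile E. coli (0.709 times), against 222 ± 10.9 and 212.9 ± 8.92 CPM in neonatal PBS and E. coli.

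**Figure D2:**
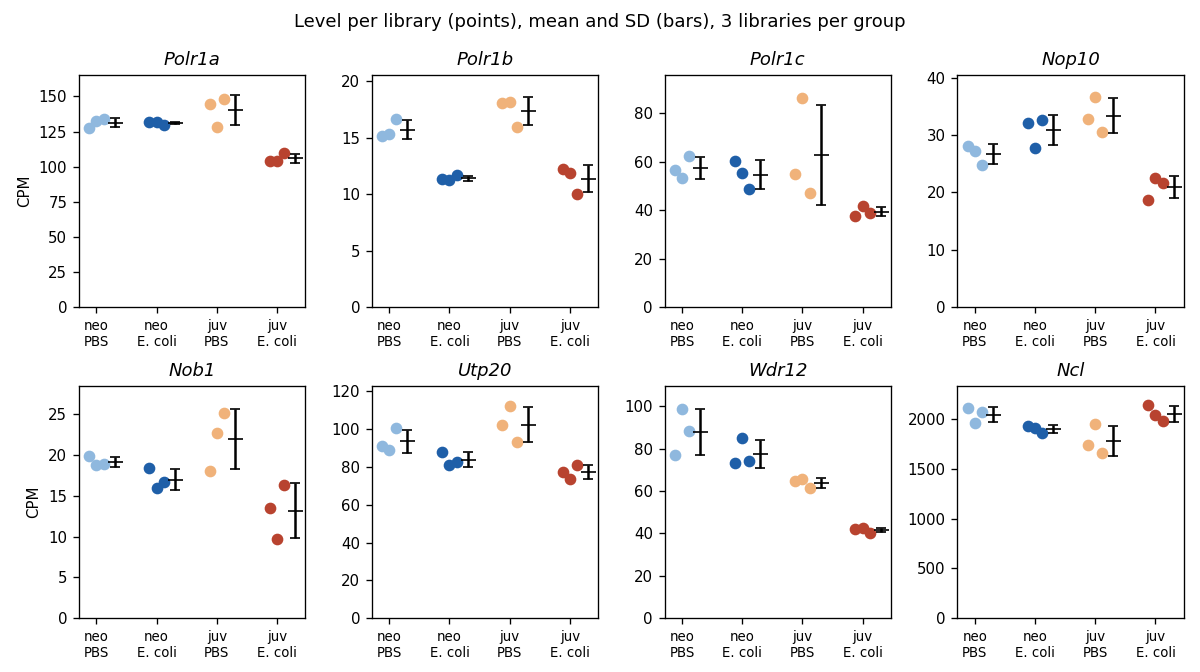
Level (CPM) of 8 ribosome biogenesis genes in each library (points) of the 4 groups, with mean and SD of 3 libraries beside them (bars), on axes that start at 0. In Polr1a, Polr1c, Nop10 and Wdr12 the 3 juvenile E. coli points lie below all others. In Polr1b the infected pools are low at both ages, and in Ncl all 3 juvenile E. coli points lie above the juvenile PBS points.

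The core proteins of the box C/D snoRNP, which guides ribose methylation, did not move as a unit. Fbl, the methyltransferase itself (chr7:28169710-28179269, plus strand), held 24.2, 25.7 and 27.3 CPM in juvenile PBS pools and 20.6, 17.7 and 21.2 CPM in juvenile E. coli pools. It fell by 0.37 ± 0.12 on the log2 scale (adjusted p = 0.0384 by edgeR), with no overlap of the juvenile groups. This call held in 11 of 23 alternative settings, with an adjusted p of 0.0103 to 0.451 over them. It was lost without the third neonatal E. coli (adjusted p = 0.0519), the first (0.0522) or the third (0.11) juvenile PBS, or the first (0.0621) or second (0.169) juvenile E. coli library. In neonates Fbl held 23.4, 26.0 and 23.9 CPM after PBS and 25.5, 21.6 and 23.9 CPM after E. coli, with overlap.

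Nop56, a scaffold protein of the particle, held 152, 137 and 168 CPM in juvenile PBS pools and 148, 136 and 130.0 CPM in juvenile E. coli pools. Neonatal pools contained 131, 123 and 139 CPM after PBS and 157, 148 and 142 CPM after E. coli. The neonatal groups did not overlap and the juvenile groups did. Neither change passed the edgeR test (neonatal 0.19 ± 0.09, adjusted p = 0.47, and juvenile -0.14 ± 0.09, adjusted p = 0.287). The juvenile minus the neonatal change was -0.33 ± 0.13 (adjusted p = 0.154 by edgeR), and -0.397 without the second juvenile PBS library (adjusted p = 0.039).

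Nop58, its partner scaffold, held 168, 227 and 154 CPM in juvenile PBS pools and 216, 200.5 and 215 CPM in juvenile E. coli pools. Neonatal pools held 179, 160.3 and 183 CPM after PBS and 188, 190.5 and 182 CPM after E. coli. The groups overlapped at both ages, in juveniles through the second PBS pool. The juvenile change of 0.20 ± 0.12 did not pass the edgeR test (adjusted p = 0.218). Without that pool it was 0.39 (adjusted p = 0.00256 by edgeR).

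The box H/ACA snoRNP guides pseudouridylation and also forms part of telomerase. Among its 4 core proteins, Nop10 fell in infected juveniles and the other 3 did not pass the test. That is 25% of the 4, where 9.42% of all tested genes fell. Nop10 (chr2:112261926-112263269, plus strand), a small bridging protein of the particle, held 32.9, 36.6 and 30.6 CPM in juvenile PBS pools and 18.7, 22.5 and 21.6 CPM in juvenile E. coli pools. In neonates it held 28.1, 27.2 and 24.8 CPM after PBS and 32.2, 27.8 and 32.5 CPM after E. coli. The juvenile groups were well separated, and the neonatal ones overlapped with the infected pools at or above most PBS pools. The juvenile log2 fold change was -0.67 ± 0.12 (adjusted p = 0.00107 by edgeR) and the neonatal one 0.21 ± 0.12 (adjusted p = 0.566).

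Dkc1, the pseudouridine synthase, held 183, 201 and 175 CPM in juvenile PBS pools and 186, 167 and 176 CPM in juvenile E. coli pools. Its neonatal pools held 205, 173 and 203 CPM after PBS and 192, 178 and 185 CPM after E. coli. All 4 groups overlapped, and the 95% intervals of both responses stayed within 1.5-fold in either direction. Gar1 held 36.5, 37.1 and 48.5 CPM in juvenile PBS and 38.5, 30.1 and 32.3 CPM in juvenile E. coli pools. In neonates the Gar1 pools held 43.9, 40.4 and 40.7 CPM after PBS and 37.5, 36.4 and 36.0 CPM after E. coli, and neither of its responses passed the test. Nhp2, at 6.91 to 14.2 CPM over all libraries, did not pass in either age.

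The nucleolar chaperones and regulators held the most abundant transcripts. In the juvenile response 1 of the 7 passed the test (14.3%), where 24.8% of all tested genes did. Npm1, nucleophosmin, held 2839, 3745 and 2526 CPM in juvenile PBS pools and 3331, 2768 and 2625 CPM in juvenile E. coli pools. Among neonates the level was 3405, 3360 and 3373 CPM after PBS and 3352, 3118 and 3106 CPM after E. coli. The juvenile groups overlapped, while the neonatal infected pools all stood slightly below the PBS pools (log2 fold change -0.08 ± 0.12, adjusted p = 0.871 by edgeR). Processed pseudogenes of Npm1 are known, and the handling of reads shared with them is not given by the labels or files.

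Ncl, nucleolin, an RNA-binding protein of the nucleolus (chr1:86344719-86359400, minus strand), was the 1 member that rose in infected juveniles. Its pools held 1740, 1954 and 1658 CPM after PBS and 2140, 2043 and 1984 CPM after E. coli, without overlap. Neonates held 2109, 1958 and 2077 CPM after PBS and 1937, 1911 and 1864 CPM after E. coli, also without overlap but in the other direction. The juvenile change of 0.20 ± 0.07 was just past the edgeR test (adjusted p = 0.0498) and held in 6 of 23 alternative settings, over which the adjusted p ran from 0.00117 to 0.812. It was lost without any 1 library other than the second juvenile PBS and the third juvenile E. coli library, and with the cell cycle covariate described below the change was -0.049. The neonatal change of -0.11 ± 0.07 did not pass (adjusted p = 0.634), nor did the difference between the ages (0.31 ± 0.10, adjusted p = 0.0825). Without the second juvenile PBS library this difference was 0.380 and passed (adjusted p = 0.00778 by edgeR). It also passed with all libraries by DESeq2 (adjusted p = 0.0435) and by limma voom (adjusted p = 0.00267).

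Mybbp1a, a nucleolar protein that acts on rRNA transcription and processing, held 116, 111 and 132 CPM in juvenile PBS pools and 104, 104 and 96.8 CPM in juvenile E. coli pools. In neonates it held 122, 109 and 127 CPM after PBS and 132, 131 and 134 CPM after E. coli. Infected pools were all below PBS pools in juveniles and all above them in neonates. Neither response passed the edgeR test (juvenile -0.23 ± 0.09, adjusted p = 0.0726, and neonatal 0.15 ± 0.09, adjusted p = 0.581), nor did their difference (-0.38 ± 0.13, adjusted p = 0.087). Without the second juvenile PBS library the juvenile change was -0.285 (adjusted p = 0.0276 by edgeR) and the difference -0.434 (adjusted p = 0.0273), both past the test. The juvenile change also passed without the second neonatal PBS library (adjusted p = 0.0477). Mybbp1a shares 131 exon bases with Spns2 on the other strand. The helicase Ddx21, the snoRNP chaperone Nolc1, nucleostemin (Gnl3) and the nucleoplasmin relative Npm3 had juvenile log2 fold changes between -0.05 and 0.06, and none passed. Npm3 ran from 0.989 to 1.87 CPM, and its 95% intervals reached beyond 1.5-fold in both directions at each age.

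Of the 13 small subunit processing factors, 3 fell in infected juveniles and none rose, and all 13 juvenile log2 fold changes were below 0. The 3 are 23.1% of the factors, where 9.42% of all tested genes fell and 15.4% rose. The median of the 13 was -0.12, against -0.01 for all tested genes. Nob1, the endonuclease that makes the last cut of the small-subunit rRNA (chr8:107412486-107425051, minus strand), held 18.01, 22.7 and 25.2 CPM in juvenile PBS pools and 13.6, 9.67 and 16.4 CPM in juvenile E. coli pools. It held 19.9, 18.8 and 19.0 CPM in neonatal PBS and 18.4, 16.0 and 16.7 CPM in neonatal E. coli pools. Infected pools were below PBS pools at both ages, by a gap narrower than the spread within either juvenile group. The juvenile log2 fold change was -0.73 ± 0.18 (adjusted p = 0.0082 by edgeR) and the neonatal one -0.18 ± 0.18 (adjusted p = 0.795).

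Utp20, a large scaffold of the early small-subunit precursor (chr10:88746607-88826804, minus strand), held 102, 112 and 92.9 CPM in juvenile PBS pools and 77.5, 73.6 and 81.2 CPM in juvenile E. coli pools. Its neonatal pools held 91.2, 88.8 and 100.5 CPM after PBS and 88.1, 80.8 and 82.3 CPM after E. coli. At both ages the infected pools lay below the PBS pools, narrowly so in neonates. Utp20 fell by 0.40 ± 0.10 on the log2 scale in juveniles (adjusted p = 0.00644 by edgeR). The neonatal change was -0.16 ± 0.10 (adjusted p = 0.575).

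Bysl, bystin, needed for small-subunit maturation (chr17:47599331-47611492, minus strand), held 41.9 to 52.3 CPM in juvenile PBS and 36.6 to 37.8 CPM in juvenile E. coli pools. It fell by 0.33 ± 0.11 (adjusted p = 0.0475 by edgeR), a call that held in 12 of 23 alternative settings (adjusted p 0.0152 to 0.713). It was lost without the third neonatal E. coli library (0.0618), the first (0.0861) or the third (0.19) juvenile PBS library, or any 1 juvenile E. coli library (0.0882 to 0.111). Exons of Bysl overlap those of Ccnd3 on the other strand by 361 bases, and the kit does not mark strand. Ccnd3 itself changed by -0.09 ± 0.13 (adjusted p = 0.643 by edgeR).

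Ddx10, an RNA helicase, held 210, 234 and 181 CPM in juvenile PBS pools and 205, 204 and 192 CPM in juvenile E. coli pools. It held 212, 234 and 218 CPM in neonatal PBS and 223, 226 and 206 CPM in neonatal E. coli pools. Wdr43, a factor that couples transcription of ribosomal DNA to processing, held 125, 134 and 114 CPM in juvenile PBS and 121, 118 and 109 CPM in juvenile E. coli pools. Its neonatal pools held 110.3, 117 and 131 CPM after PBS and 125, 121 and 122 CPM after E. coli. Both genes overlapped between infected and PBS pools at each age.

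The other small-subunit factors (Wdr75, Heatr1, Nop14, Imp4, Rrp9, Rrp12, Ltv1 and Tsr1) had juvenile log2 fold changes from -0.32 to -0.01. None passed the edgeR test. Imp4, part of the particle that starts small-subunit processing, held 53.2 to 62.2 CPM in neonatal PBS and 63.8 to 70.3 CPM in neonatal E. coli pools without overlap. Its neonatal change of 0.23 ± 0.10 did not pass (adjusted p = 0.372). Tsr1, a late assembly factor, shares 1240 exon bases with Srr on the other strand, so its level is uncertain.

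Of the 12 large subunit processing factors, Wdr12 fell in infected juveniles (8.33% of the factors, beside 9.42% of all genes) and none rose. Wdr12 forms a complex with Pes1 and Bop1 that is needed for processing of the large-subunit rRNA, and lies at chr1:60069785-60098645 on the minus strand. It held 64.6, 65.9 and 61.4 CPM in juvenile PBS pools and 42.1, 42.5 and 40.4 CPM in juvenile E. coli pools. The neonatal libraries gave 76.9, 98.6 and 88.2 CPM after PBS and 73.1, 84.9 and 74.3 CPM after E. coli. Every neonatal pool was above every juvenile pool, and the juvenile E. coli pools were the lowest of all. The juvenile log2 fold change was -0.62 ± 0.11 (adjusted p = 0.000738 by edgeR) and the neonatal one -0.18 ± 0.10 (adjusted p = 0.543). Their difference, -0.43 ± 0.15, did not pass (adjusted p = 0.0956 by edgeR), but did without the second neonatal PBS library (-0.555, adjusted p = 0.0467). Wdr12 shares 61 exon bases with Carf on the other strand.

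The partners of Wdr12 did not pass the test in juveniles, and their difference from Wdr12 was not tested. Like Wdr12, Pes1 had its highest group mean in neonatal PBS and its lowest in juvenile E. coli. For Bop1 the highest was in juvenile PBS and the lowest in neonatal PBS. Pes1 held 55.8, 48.1 and 55.3 CPM in juvenile PBS pools and 55.1, 49.0 and 41.3 CPM in juvenile E. coli pools. In neonates it held 65.9, 49.7 and 62.4 CPM after PBS and 61.1, 46.1 and 54.3 CPM after E. coli, and its groups overlapped in every comparison. Bop1 ran from 13.1 to 19.3 CPM over all libraries. The juvenile change was -0.13 ± 0.14 for Pes1 (adjusted p = 0.537 by edgeR) and -0.12 ± 0.16 for Bop1 (adjusted p = 0.638).

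Nle1, which acts with a remodelling ATPase on the large-subunit precursor, had the largest fitted juvenile change of the group but among the lowest counts. Its juvenile pools held 4.32, 1.48 and 6.38 CPM after PBS and 2.52, 3.45 and 1.40 CPM after E. coli. Neonatal pools held 2.08, 3.61 and 4.08 CPM after PBS and 3.19, 5.61 and 4.46 CPM after E. coli. The groups overlapped at both ages, and the juvenile change of -0.73 ± 0.47 did not pass the edgeR test (adjusted p = 0.27). Without the second juvenile PBS library it was -1.12 (adjusted p = 0.0493 by edgeR). The other large-subunit factors (Nop2, Nop16, Rrs1, Rrp1b, Ebna1bp2, Mrto4, Noc3l and Ppan) had juvenile log2 fold changes from -0.43 for Ppan to 0.30 for Rrp1b, and none passed. Rrp1b passed without the third juvenile E. coli library (0.426, adjusted p = 0.0319 by edgeR).

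**Figure D3:**
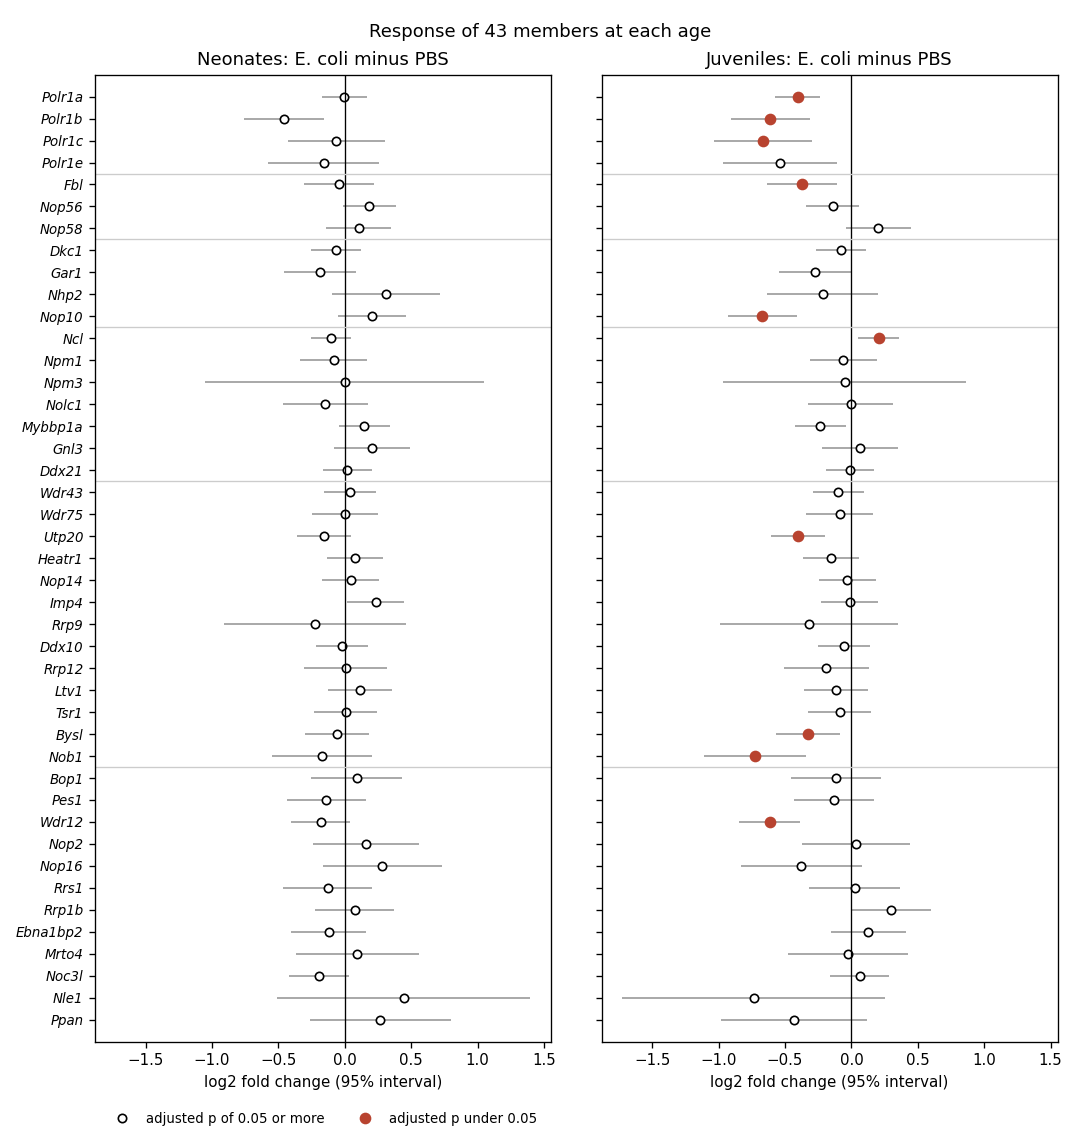
Log2 fold change (point) with its 95% interval (line) of each of the 43 ribosome biogenesis genes after E. coli against PBS, in neonates (left) and juveniles (right), with filled points for an adjusted p under 0.05. The filled points are 10 in juveniles, 9 of them left of 0, and there are none in neonates.

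Counted over all 43 genes, 23.3% were called in the juvenile response, against 24.8% of the 11062 tested genes. By direction, 20.9% of the members and 9.42% of all genes fell, and 2.33% of the members and 15.4% of all genes rose. The median juvenile log2 fold change was -0.12 for the members (-0.196 without the first juvenile E. coli library) and -0.01 for all genes, and 35 of the 43 members were below 0. Unadjusted p-values under 0.05 were found for 13 members and for 37% of all genes. No member had all 3 juvenile E. coli libraries above the other 9, as 10.4% of all genes did. Juvenile groups did not overlap in 12 members that were lower and 1 that was higher, where 16.3% and 20.6% of all tested genes did not overlap in those directions. The 95% intervals lay below a 1.5-fold rise for 41 of the 43 members, Npm3 and Rrp1b being the exceptions, and above a 1.5-fold fall for 29.

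In the neonatal response no member was called, against 1.19% of all tested genes, by edgeR, DESeq2 or limma voom. Unadjusted p-values under 0.05 were found for 2 members by edgeR (Polr1b and Imp4), 2 by DESeq2 and 5 by limma voom, and for 12% of all genes by edgeR. The median log2 fold change was -0.001 for the members, with 21 above and 22 below 0. Pools did not overlap in 5 members that were higher and 7 that were lower, where 11.2% and 10.6% of all genes did not. For 36 members the 95% interval excluded a change of 1.5-fold in either direction.

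The responses of the ages differed for 2 of the 43 members (4.65%), against 7% of all tested genes. Both had a lower response in juveniles (1.94% of all genes, with 5.05% higher). For Nop10 the juvenile minus the neonatal log2 fold change was -0.88 ± 0.17 (adjusted p = 0.00759 by edgeR), and for Polr1a it was -0.40 ± 0.11 (adjusted p = 0.0441). The call for Polr1a was lost without any 1 of 10 of the 12 libraries (adjusted p 0.0594 to 0.124), the 2 others being the second juvenile PBS and the third juvenile E. coli library. That for Nop10 held in all 12 such fits. With the summed level of immature T cell genes as a covariate, neither was called (Nop10 -1.006, adjusted p = 0.0529, and Polr1a -0.249, adjusted p = 0.445). Without the second juvenile PBS library, 5 members were called in place of 2, while calls over all genes went from 774 to 1553. The median difference was -0.14 over the members and -0.01 over all genes. The members' median was -0.239 without the third neonatal PBS and -0.226 without the first juvenile E. coli library.

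After PBS, neonates and juveniles differed for 1 member of 43 (2.33%), against 4.08% of all tested genes (2.32% higher and 1.75% lower in neonates). Wdr12 was higher in neonates by 0.46 ± 0.11 on the log2 scale (adjusted p = 0.0218 by edgeR). This call was lost without the second (adjusted p = 0.129) or the third neonatal PBS library (0.0796), or the first (0.0704) or the third juvenile PBS library (0.0662). Without the second juvenile PBS library 3 members were called, Wdr12, Ncl (0.270, adjusted p = 0.019 by edgeR) and Npm1 (0.334, adjusted p = 0.0389). Over all genes, that fit called 671 in place of 451. Neonatal and juvenile PBS pools did not overlap in 4 members that were higher in neonates (Ncl, Wdr12, Rrs1 and Noc3l) and 1 that was lower (Nop10), beside 9.82% and 10.2% of all genes.

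After E. coli, 4 members of 43 (9.3%) were higher in neonates and none was lower, against 17.8% of all tested genes called, 6.42% higher and 11.3% lower. Wdr12 was higher by 0.89 ± 0.11 on the log2 scale (adjusted p = 3.13e-05 by edgeR) and Nop10 by 0.56 ± 0.12 (adjusted p = 0.0052). Mybbp1a was higher by 0.38 ± 0.09 (adjusted p = 0.0086) and Polr1a by 0.31 ± 0.08 (adjusted p = 0.015). For Polr1a the call was lost without the first neonatal E. coli library (adjusted p = 0.0573) or the first (0.0557) or second (0.0742) juvenile E. coli library. The median over the members was 0.12 (0.067 without the third juvenile E. coli library) and over all genes 0.02. Infected pools of the ages did not overlap in 14 members that were higher in neonates, beside 19.4% of all genes, and 2 that were lower (Nop58 and Ncl), beside 20.5%. Immature T cell genes moved with this comparison: their sums did not overlap, all 7 were lower in neonates, 2 of them past the test, and their median log2 difference was -2.745. With their summed level as a covariate, Mybbp1a (0.325, adjusted p = 0.135 by edgeR) and Polr1a (0.200, adjusted p = 0.284) were no longer called, and Wdr12 and Nop10 were. Polr1c, not called in the main fit (0.474, adjusted p = 0.0728 by edgeR), was also called with this covariate (adjusted p = 0.0267). It passed in 8 of 23 alternative settings, this one included. Since the sums did not overlap, covariate and age cannot be fully told apart in that fit. This comparison shares its juvenile E. coli libraries with the juvenile response and is not independent of it.

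Other genes of the pathway, taken from lists of the same roles, were counted in the same fit. Of 129 such genes 125 were in the table and 124 were tested, and in the juvenile response 10 fell and 2 rose, with a median of -0.12. The share that fell, 8.06%, was near that of all tested genes (9.42%), and the share called in either direction, 9.68%, was below it (24.8%). In the neonatal response none passed by edgeR, 10 having an unadjusted p under 0.05. Of 10 other RNA polymerase I subunits and factors, 1 fell: Cd3eap, a further subunit, went from 8.23 to 4.82 CPM (-0.77 ± 0.22, adjusted p = 0.019 by edgeR). The initiation factors Taf1c (-0.45 ± 0.17, adjusted p = 0.0736) and Rrn3 (-0.07 ± 0.10, adjusted p = 0.637) and the subunit Twistnb (0.26 ± 0.13, adjusted p = 0.171) did not pass.

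Of 43 other small subunit factors, 5 fell (11.6%) and 1 rose in juveniles, and of 40 large subunit factors 4 fell (10%) and none rose. Both shares that fell are near the 9.42% of all genes. Emg1, an rRNA methyltransferase, fell by 0.38 ± 0.10 (adjusted p = 0.012 by edgeR), Nol11 by 0.31 ± 0.09 (adjusted p = 0.0268) and Pwp2 by 0.55 ± 0.17 (adjusted p = 0.0271). Nol10 rose by 0.56 ± 0.15 (adjusted p = 0.0144). The large subunit factors that fell were Las1l (-0.38 ± 0.10, adjusted p = 0.0124), Rpf1 (-0.40 ± 0.11, adjusted p = 0.0183), Rrp15 (-0.56 ± 0.19, adjusted p = 0.0371) and Mdn1 (-0.28 ± 0.09, adjusted p = 0.0394). Mdn1 is the remodelling ATPase with which Nle1 acts.

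Of 10 snoRNP assembly factors none passed by edgeR, and none had an unadjusted p under 0.05. The smallest p-values were those of Naf1 (0.40 ± 0.20, adjusted p = 0.146), Ruvbl2 (-0.26 ± 0.14, adjusted p = 0.198), Ruvbl1 (-0.17 ± 0.13, adjusted p = 0.392) and Shq1 (-0.34 ± 0.29, adjusted p = 0.426). Of 21 tested exosome and RNase MRP genes, which trim and cut pre-rRNA, 1 rose: Mphosph6, an exosome cofactor, by 0.47 ± 0.17 (adjusted p = 0.0496 by edgeR).

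Among the members, 1 (2.33%) rose in juveniles and none in neonates, beside 15.4% and 1.05% of all tested genes. Myc rose at both ages, and its part in the members' changes was not tested. It went from 93.7 to 162 CPM in juveniles (0.79 ± 0.12, adjusted p = 0.000245 by edgeR) and from 82.2 to 134 CPM in neonates (0.71 ± 0.12, adjusted p = 0.00705). The difference between the ages was 0.08 (adjusted p = 0.822). Mxd1, which competes with Myc for Max and represses E-box genes, rose by 2.16 ± 0.16 in juveniles (adjusted p = 7.8e-07) and by 1.11 ± 0.16 in neonates (adjusted p = 0.003). Its response was larger in juveniles by 1.05 (adjusted p = 0.0116 by edgeR). Mga, another Max partner, fell by 0.26 ± 0.08 in juveniles (adjusted p = 0.0245), and the Myc relative Mycl1 did not pass (0.83 ± 0.35, adjusted p = 0.0978).

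The 9 members with an E-box, shown above, had a median juvenile log2 fold change of -0.12, with 1 lower (Utp20) and none higher. The 29 members with a promoter window but no CACGTG had a median of -0.14, with 7 lower and 1 higher. In neonates the medians were 0.11 and -0.003, and none passed in either set. For CGGAAG, 4 of the 21 members with the letters fell in juveniles, and 4 fell and 1 rose of the 17 without. Of all tested genes, 9.42% fell and 15.4% rose in juveniles. Differences between members with and without either motif were not tested. A match of letters is a description of the window and not a site shown to be bound.

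Annotated snoRNA genes lie inside 8 of the 43 members (18.6%), Nop56, Nop58, Dkc1, Ncl, Gnl3, Wdr43, Tsr1 and Ppan, against 1.917% of 10381 tested protein-coding genes. They hold 23 snoRNA genes between them. None of these 8 hosts fell in infected juveniles and 1, Ncl, rose, and 9 of the 35 members without such a gene fell, where 9.42% of all tested genes fell and 15.4% rose. The median juvenile log2 fold changes were -0.084 and -0.155, and the difference between the sets was not tested. Whether reads of the snoRNAs were counted with their hosts is not given by the labels or files.

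Several other gene lists moved with the juvenile response, and their part in the members' changes was not tested except where a value is given. All 78 ribosomal protein genes, the structural products that this machinery assembles with rRNA, had a juvenile change below 0, and 70 fell, with a median of -0.61. Their sum was 0.676 times the PBS level in infected juveniles, against 0.990 times for the 43 members. Both ratios include the high second juvenile PBS pool. For the ribosomal proteins it held 54660 CPM, against 40880 and 40840 CPM in the others and 28720 to 33210 CPM in juvenile E. coli pools. For the members it held 8392 CPM, against 7074 and 6648 CPM in the others and 6873 to 7893 CPM in juvenile E. coli pools. Npm1 and Ncl made up 65.4% of the members' sum in juvenile PBS, and without them the sum of the other 41 was 0.915 times the PBS level. Of 40 cell cycle genes 31 rose, and their sum rose 1.997-fold, from 2941 to 4794 CPM in juvenile PBS pools to 5702 to 8529 CPM in juvenile E. coli pools. With the summed cell cycle level of each library as a covariate, 3 members were called in the juvenile response, all lower: Polr1c, Nop10 and Npm1. The cell cycle sums did not overlap between the juvenile groups, so covariate and infection cannot be fully told apart in that fit.

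Markers of several, but not all, other cell types also rose in infected juveniles. Of 16 tested monocyte and macrophage genes 12 rose and 1 fell, the list summing to 637 to 903 CPM in juvenile PBS and 1413 to 1846 CPM in juvenile E. coli pools. Of 11 tested dendritic cell and MHC class II genes 7 rose (287 to 403 CPM against 627 to 794 CPM). Of 8 tested NK and innate lymphoid genes 3 rose (475 to 568 CPM against 849 to 933 CPM), 1 of the list of 10 being at 0 in every library. Of 5 tested neutrophil genes 4 rose (0.330 to 4.03 CPM against 12.7 to 27.5 CPM), as 4 did in neonates (0.972 to 3.42 CPM against 10.98 to 65.5 CPM). Of 7 tested endothelial genes 3 rose and 1 fell, with list sums of 263 to 269 CPM against 261 to 280 CPM. Of 8 tested lung epithelial genes 2 rose (36.8 to 44.7 CPM against 92.8 to 208 CPM). Of 9 tested B cell genes 1 rose, with list sums of 44.5 to 65.6 CPM against 47.2 to 80.1 CPM. None of 7 tested fibroblast and smooth muscle genes passed, nor did the 1 tested erythroid gene. The part of these markers in the members' changes was not tested. T cell identity genes summed to 6694 to 7508 CPM in juvenile PBS pools and 5464 to 5931 CPM in juvenile E. coli pools (0.798 times). Cd4 itself was at 1298 ± 50.9 CPM in juvenile PBS and 1082 ± 49.6 CPM in juvenile E. coli.

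**Figure D4:**
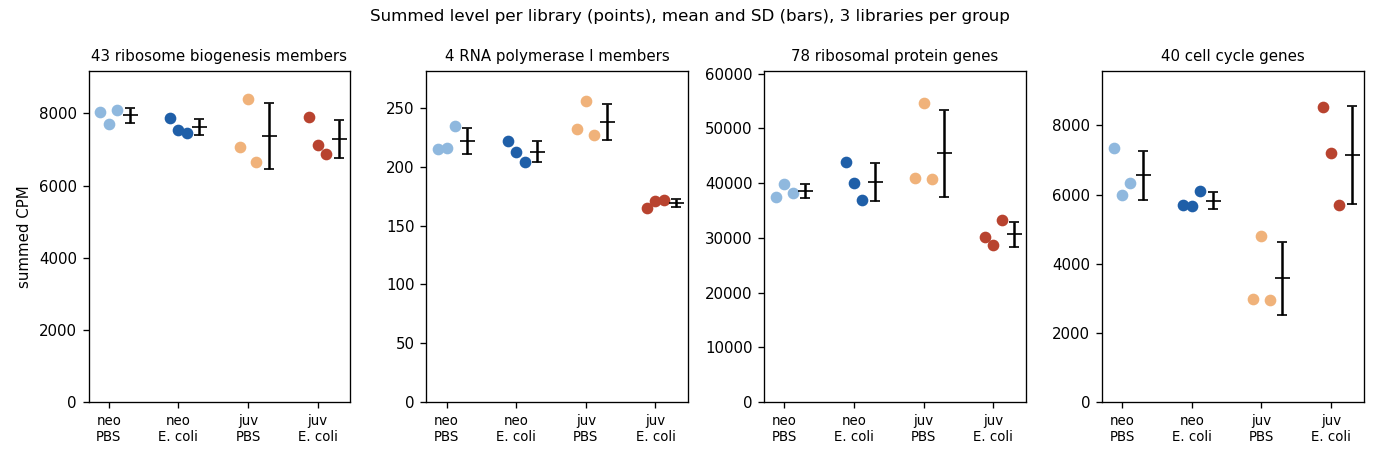
Summed level (CPM) per library (points) of the 43 ribosome biogenesis genes, the 4 RNA polymerase I members, 78 ribosomal protein genes and 40 cell cycle genes in the 4 groups, with mean and SD of 3 libraries (bars), on axes that start at 0. The members' sums overlap across all groups, the RNA polymerase I and ribosomal protein sums are lowest in juvenile E. coli, and the cell cycle sums are lowest in juvenile PBS.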

How the data were processed

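RNA of 12 libraries of sorted lung CD4+ T cells was analysed. The deposited values are raw counts per gene symbol, and the title of the authors' table names SeqMonk. The submitters' processing notes name CASAVA 1.8.4, STAR and the builds GRCm38 and mm10. Settings and annotation of the counting step are not given by the sources used here. Counts per library ran from 6035445 to 8129983, so 3 counts, the upper limit that a count of 0 allows, are 0.374 to 0.494 CPM, and such limits cover counting error only.

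Low counts were removed by filterByExpr of edgeR (10 counts at least, 15 in total), leaving 11062 of 19434 genes and 99.9% of counts. The quasi-likelihood F-test of edgeR 4.0.16 under R 4.3.3 was fitted with 1 mean per group to all 12 libraries after TMM scaling, adjusted by Benjamini-Hochberg over all genes tested, with a threshold of 0.05 on the adjusted p. The spread between libraries (common BCV) was 0.123. The fit gave 5 contrasts: the response to E. coli at each age, juvenile minus neonatal response, and the effect of age within each exposure. Levels are TMM-scaled CPM (mean ± SD, n = 3), and log2 fold changes carry their SE and 95% intervals. Each SE was taken as the absolute log2 fold change over the square root of its F statistic. The intervals were built from that SE, so both are approximate. Replicates differed by more than counting error (chi-square per degree of freedom 4.00 to 20.7). No batch or date is given in the labels.

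The members and gene lists were chosen with earlier results of these data known. Values in every library are given, per role, for the 2 members of highest level and the 2 of largest juvenile change, and for members called in other contrasts. Up to 4 genes of smallest p are named per pathway list. Locations are from GENCODE M21 and promoter windows from RefSeq. Alternatives were scaling by RLE or by the upper quartile, the tools DESeq2 1.42.0 and limma 3.58.1 (voom with sample weights), no filter or a stricter one, a replicate block, cell cycle and immature T cell covariates, only the groups compared, and each library left out. Tables and figures used Python 3.11.15 and matplotlib 3.10.9.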

Additional observations from a re-analysis of the deposited data

Results flagged for a closer look

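Nop10, the small bridging protein of the box H/ACA snoRNP, responded differently at the 2 ages: its juvenile log2 fold change after E. coli was lower than the neonatal one by 0.88, by a test of the difference itself in the edgeR model (value -0.88, adjusted p = 0.00759). Polr1a, the largest RNA polymerase I subunit, also differed between the ages by that test (-0.40, adjusted p = 0.0441), but 9 of 22 alternative settings kept its call, against 20 of 22 for Nop10. Groups of 3 libraries are too small for the test of single outlying libraries.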

How the results depend on the processing

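Over 23 alternative settings (22 for the difference of responses), Nop10 and Polr1c kept their fall in infected juveniles in all 23. Polr1a, Polr1b, Utp20, Nob1 and Wdr12 kept it in 22, no longer passing with the cell cycle covariate (adjusted p by edgeR 0.423, 0.0582, 0.0583, 0.253 and 0.0772), where their log2 changes were -0.173, -0.841, -0.526, -0.629 and -0.586. The cell cycle sums did not overlap between the juvenile groups, so a call lost in that fit does not separate cell cycle from infection. The change of Ncl turned to -0.049 (adjusted p = 0.812) with that covariate and was the 1 sign change of a called gene. With that covariate, the count of members called was 3 in the juvenile response (median -0.292), 0 in the difference (median -0.324), 0 in age after PBS (median -0.192) and 7 in age after E. coli. With limma voom it was 8 in the difference (median -0.239), 3 in age after PBS and 11 in age after E. coli. The immature T cell covariate gave 0 in the difference, and only the groups compared gave 0 in age after PBS. Upper-quartile scaling moved the medians to -0.201 in the difference and 0.165 in age after E. coli, and the share of juvenile calls that were higher from 62.07% to 50.92% over all genes. Leaving out each library in turn gave counts of 7 to 13 in the juvenile response (medians -0.196 to -0.092), 1 to 5 in the difference (medians -0.239 to -0.142), 0 to 3 in age after PBS and 3 to 5 in age after E. coli (medians 0.067 to 0.167). Leaving out the first neonatal PBS and the second juvenile PBS library together, chosen after seeing the data, gave 4 in the difference. Over all genes it gave 1109 in place of 774. The replicate numbers did not pair the samples, since the deviations of same-numbered libraries correlated at -0.176 to 0.223. With the replicate block, 7 members were called in the juvenile response and 1 in the difference, where Polr1a was lost (adjusted p = 0.0642). In the neonatal response no member was called in any alternative. Over all genes, limma voom called 4480 genes in place of 2747 in the juvenile response, 312 in place of 132 in the neonatal response, 2300 in place of 774 in the difference, 927 in place of 451 in age after PBS and 3810 in place of 1964 in age after E. coli. DESeq2 called 238 in the neonatal response and 729 in age after PBS. The cell cycle covariate gave 1060, 214, 65 and 845 in the first 4 of these, the immature T cell covariate 53, 127 and 819 in the neonatal response, the difference and age after E. coli, and only the groups compared 320 and 280 in the neonatal response and age after PBS. Without single libraries the all-gene counts went down to 1656, 55, 368, 177 and 1108, and up to 238 in the neonatal response and 1553 in the difference without the second juvenile PBS library. Low counts limited Npm3, whose intervals reached beyond 1.5-fold in both directions at each age.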
